A study of Homo sapiens with 12 samples.

Results

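A set of 41 genes that carry out DNA replication, chosen by name as genes under E2F control, was followed in 12 RNA sequencing libraries of WM1366, a human melanoma cell line with a mutation in NRAS. All 41 were found among the 12931 gene rows of the data, so no member was lost to a filter on low values. The libraries fall into 3 groups of 4. Combination groups R2 and R1 carry the label of a diet that combined a MEK inhibitor with a CDK4/6 inhibitor, and the control group that of a control diet. The series design describes the material as xenograft tumours that were progressing, that is, human cells growing in another animal. The protocols of every sample, the controls included, describe melanoma cells grown in Tu2% medium and given palbociclib, which inhibits CDK4 and CDK6, at 0.1 uM with PD0325901, which inhibits MEK, at 1 nM. Which of these descriptions applies to which library cannot be told. What separates R2 from R1 is not labelled, and the 4 replicates may each be a tumour, a culture or a repeat preparation of 1 cell line. P-values therefore measure the spread between these libraries, which may be technical.

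Growth signals through RAS, RAF, MEK and ERK raise cyclin D, and cyclin D bound to CDK4 or CDK6 phosphorylates the RB protein. RB that is phosphorylated lets go of E2F transcription factors, which then switch on genes for licensing origins, unwinding and copying DNA, and making its nucleotides. MEK and CDK4/6 inhibitors act at different steps of that route, and transcripts of these genes are widely read as a sign of cells in S phase.

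The 36 members with an entry in the RefSeq promoter table (GRCh38.p14; 250 bases before to 50 after a gene's start) had 51 promoters in it, and these were searched on both strands for the E2F core motif. Its letters were TTCCCGC, or TTCGCGC, or TTGCCGC, or TTGGCGC, and matches on the 2 strands may share bases. At least 1 match was found in 31 of the 36 members (86.1%), against 25.4% of the 9317 listed genes with an entry and 15.3% of all 27305 genes in the table. Counted by single promoters, 34 of 51 (66.7%) held one, against 13.0% of 35116. A CCAAT box (letters CCAAT) was found in 22 of 36 members (61.1%), against 44.0% of the listed genes. The CHR element (letters TTTGAA), which is best known from mitotic genes, was found in 3 of 36 members (8.33%), against 13.8% of the listed genes. The members without an E2F core match were ORC6, CDC45, MCM10, POLD1 and FEN1. Only the forms above were searched, so a member without a match may hold a site with other letters. The promoters of CDC45 and MCM10 printed below hold TTGGCGG, which differs from a searched form in its last letter and was not counted. Such a match describes the letters in the window and is not evidence of binding. The promoters below belong to members whose transcripts are described in full, 3 with the most matches and 2 without any, all on the plus strand, with the E2F core matches in capitals. They are chr16:88803539-88803838 for CDT1, chr19:4402390-4402689 for CHAF1A, chr15:48331947-48332246 for DUT, chr22:19479670-19479969 for CDC45 and chr10:13161308-13161607 for MCM10.
CDT1: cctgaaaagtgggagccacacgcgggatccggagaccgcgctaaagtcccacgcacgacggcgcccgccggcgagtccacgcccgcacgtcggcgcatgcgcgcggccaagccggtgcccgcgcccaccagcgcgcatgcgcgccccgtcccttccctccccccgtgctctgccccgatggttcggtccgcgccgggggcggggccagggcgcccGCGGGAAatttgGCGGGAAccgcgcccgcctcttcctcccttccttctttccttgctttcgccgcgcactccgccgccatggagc
CHAF1A: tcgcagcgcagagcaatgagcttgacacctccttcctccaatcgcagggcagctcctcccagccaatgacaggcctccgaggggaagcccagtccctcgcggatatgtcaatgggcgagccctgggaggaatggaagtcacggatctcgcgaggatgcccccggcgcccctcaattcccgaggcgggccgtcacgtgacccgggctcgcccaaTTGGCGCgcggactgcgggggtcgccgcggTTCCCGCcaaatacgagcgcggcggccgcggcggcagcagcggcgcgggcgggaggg
DUT: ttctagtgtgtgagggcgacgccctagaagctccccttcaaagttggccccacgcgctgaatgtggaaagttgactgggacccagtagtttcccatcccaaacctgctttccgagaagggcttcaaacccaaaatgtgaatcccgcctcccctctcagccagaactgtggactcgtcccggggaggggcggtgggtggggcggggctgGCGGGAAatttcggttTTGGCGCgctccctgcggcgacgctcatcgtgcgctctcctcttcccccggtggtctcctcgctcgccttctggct
CDC45: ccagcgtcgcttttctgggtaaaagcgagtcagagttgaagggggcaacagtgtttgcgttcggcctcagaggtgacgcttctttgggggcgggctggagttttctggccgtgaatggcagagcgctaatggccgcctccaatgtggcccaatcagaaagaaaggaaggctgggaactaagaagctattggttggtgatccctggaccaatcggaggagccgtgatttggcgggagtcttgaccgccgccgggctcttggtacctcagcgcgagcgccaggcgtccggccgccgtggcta
MCM10: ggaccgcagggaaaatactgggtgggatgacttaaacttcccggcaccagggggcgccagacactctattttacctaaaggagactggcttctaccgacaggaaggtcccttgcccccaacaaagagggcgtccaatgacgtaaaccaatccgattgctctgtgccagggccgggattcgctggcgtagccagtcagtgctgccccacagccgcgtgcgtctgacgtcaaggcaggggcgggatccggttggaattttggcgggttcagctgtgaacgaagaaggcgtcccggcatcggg

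Values are the authors' normalised read signal, from which whole reads could be recovered. Depth was 20003891 to 39009384 recovered reads per library, and the lowest count of any member in any library was 156 reads. Counting error was not set against the spread between libraries for each member. Of 9 melanocyte lineage markers MITF and PMEL were listed, with a summed value of 38.2 to 40.3 in R2, 42.5 to 64.8 in R1 and 47.7 to 64.0 in control libraries. SOX10, MLANA, TYR, TYRP1, DCT, S100B and S100A1 were not among the listed genes. Transcripts of the mitochondrial genome took 3.86 to 9.19% of reads in R2 libraries, 1.99 to 3.12% in R1 libraries and 5.59 to 10.3% in control libraries. With those transcripts taken out of the total, R1 and control libraries differed in the same 8 members as reported below. These are bulk libraries, in which fewer cells in S phase and less of each transcript per cell cannot be told apart.

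The summed value of the 41 genes was 4653, 3951, 4561 and 4332 in R2 libraries, 4373, 2473, 4521 and 4350 in R1 libraries, and 5189, 4892, 3998 and 3941 in control libraries. The groups overlapped, and 1 library, R1 replicate 2, lay far below all the others. Members took 0.263% of its reads (95% Wilson interval 0.261 to 0.265%, which covers counting error), against 0.436 to 0.462% in the other R1 libraries. It was the lowest of the R1 libraries in 40 of 41 members, against 32.1% of all genes. Relative to the mean of the other R1 libraries its members stood at a median ratio of 0.585 (range 0.366 for RRM2 to 0.822), while the 10288 genes with a mean of at least 5 had a median ratio of 0.963. Endothelial markers (4 of 10 listed: PECAM1, VWF, TIE1 and EGFL7) summed to 499 in R1 replicate 2 against 375 to 406 in the other R1 libraries. The same sum was 126 to 157 in R2 and 133 to 172 in control libraries, and CDH5 and KDR were not among the listed genes. CSF1R, the one leukocyte marker listed of 10, stood at 6.19 against 1.39 to 2.35 in the other R1 libraries, and at 0.349 to 0.688 in R2 and 1.12 to 3.18 in control libraries, with PTPRC not listed. The 4 fibroblast markers listed of 8 summed to 502, within the 436 to 555 of the other R1 libraries (499 to 654 in R2 and 408 to 486 in control libraries), and none of 5 red blood cell markers was listed. The part of these cell type markers in the member values was not tested. The differences of single genes that involve R1 and are printed below are therefore given with and without that library.

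**Figure D1:**
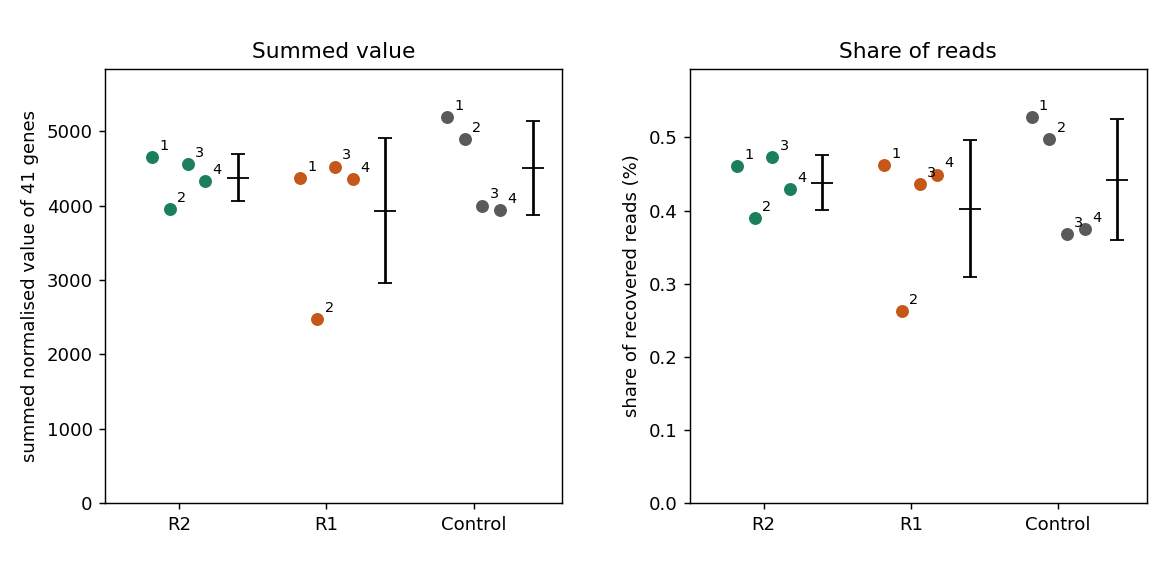
Summed normalised value of the 41 genes (left) and their share of recovered reads in percent (right), 1 point per library with its replicate number, for R2, R1 and control. Bars show the mean and SD of 4 libraries; R1 replicate 2 lies lowest in both panels (2473 and 0.263%), and control replicates 1 and 2 lie above control replicates 3 and 4.

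The other groups were not uniform either. R2 replicate 2 was the lowest R2 library in 31 of 41 members (35.7% of all genes). Control replicates 1 and 2 both exceeded control replicates 3 and 4 in 35 of 41 members (85.4%), against 31.9% of all genes, and the reverse order was met in 0 members, against 29.7% of all genes. The heat map of members by library shows these columns: a blue column at R1 replicate 2 crosses nearly every role, and the controls split into a warmer and a cooler pair. The SD of the summed value was 313 in R2, 974 in R1 (92.9 without R1 replicate 2) and 631 in control libraries.

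**Figure D2:**
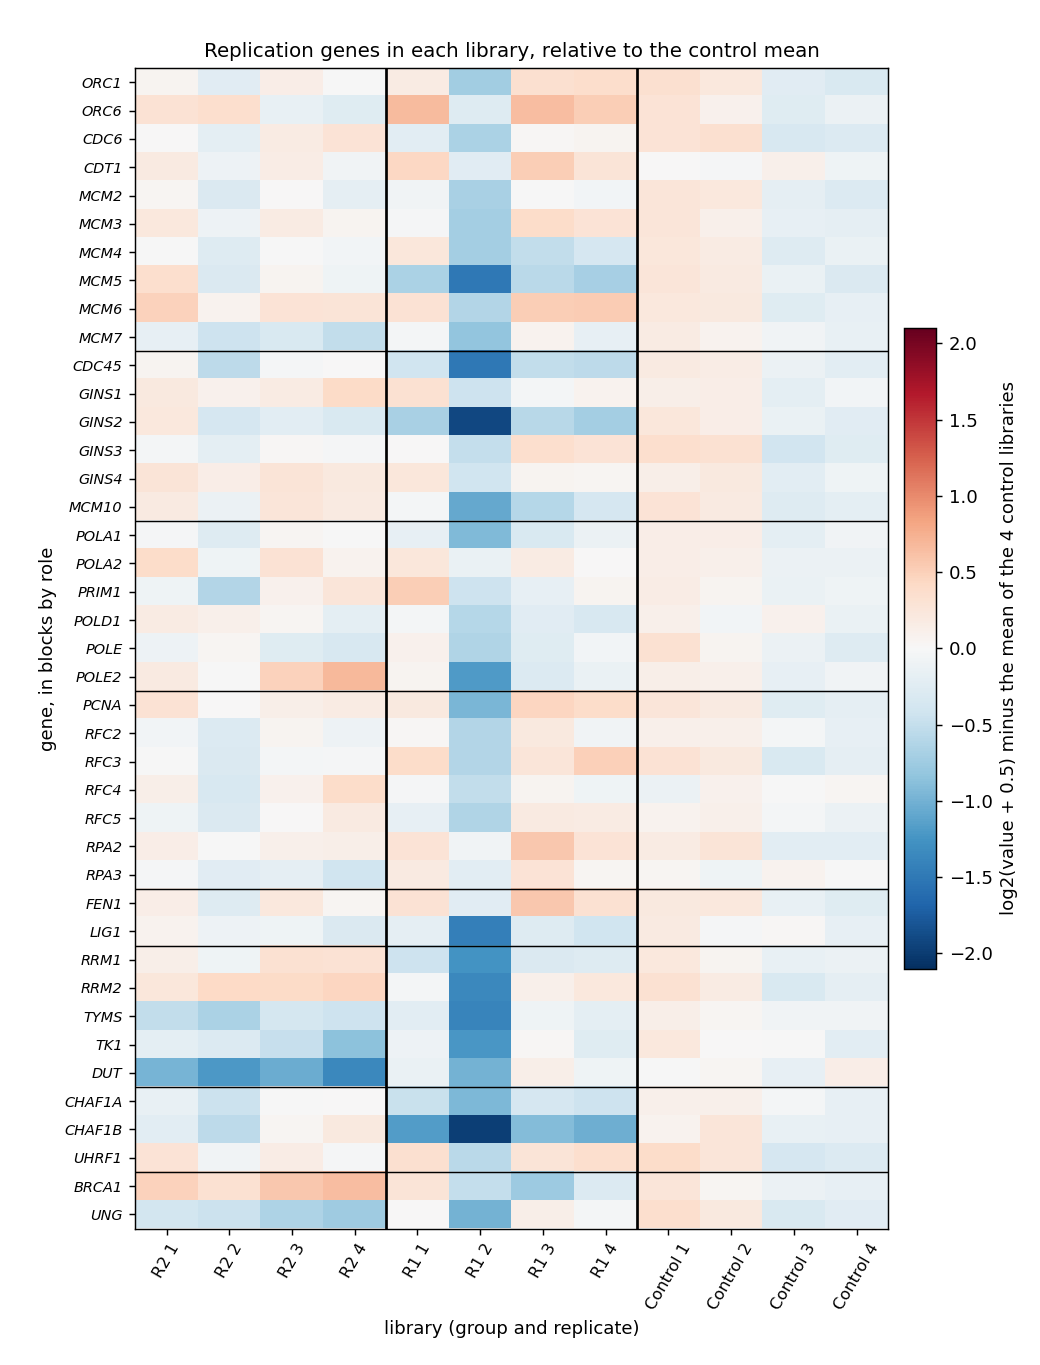
Each row is a gene, in blocks by role, and each column a library of R2, R1 or control. Colour gives log2(value + 0.5) minus the mean of the 4 control libraries, blue lower and red higher; R1 replicate 2 is blue in most rows, the DUT row is blue across R2 and the CHAF1B row across R1.

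Between R1 and control, 8 of 41 members fell and 0 rose (limma on log2(value + 0.5), Benjamini-Hochberg over 12931 genes, adjusted p under 0.05). Of all genes, 21.4% fell and 22.4% rose, so the share of members that fell (19.5%) was near the background. At an unadjusted p under 0.05, 11 members were lower and 0 higher (3219 and 3421 of all 12931 genes). On the recovered reads, edgeR and DESeq2 called 6 and 10 members lower (2681 and 2931 of all genes) and also 0 higher (2964 and 2938 of all genes). The 8 were CHAF1B, MCM5, CHAF1A, GINS2, CDC45, RRM1, LIG1 and MCM10. The median log2 difference of the members was -0.21, against 0.01 for all genes. Without R1 replicate 2 the median was -0.02, 7 members fell (22.1% of all genes) and 6 rose (23.4% of all genes). CHAF1B, MCM5, CHAF1A, GINS2, CDC45, RRM1 and LIG1 were lower in both fits (in the second, LIG1 lost its call in 9 of 20 alternatives, RRM1 in 6 and CDC45 in 2), MCM10 no longer passed, and the 6 that rose were ORC6, CDT1, MCM6, PCNA, RPA2 and FEN1. The difference of 8 members (MCM3, GINS1, GINS4, PRIM1, RFC2, RFC5, RRM2 and UNG), none called, changed sign between the fits. This split of 6 up and 7 down became 6 and 4 in CPM (recovered reads scaled to an equal total) and 3 and 7 with mitochondrial transcripts left out of the total. Without control replicate 1, or without control replicate 2, 5 of the 8 calls with all R1 libraries remained; RRM1, LIG1 and MCM10 were lost. Without R1 replicate 1 the count was 12, with MCM4, POLA1, POLD1 and BRCA1 added. The 13 calls without R1 replicate 2 came to 8 if R1 replicate 3 was left out as well, and to 7 with R1 replicate 4 left out.

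**Figure D3:**
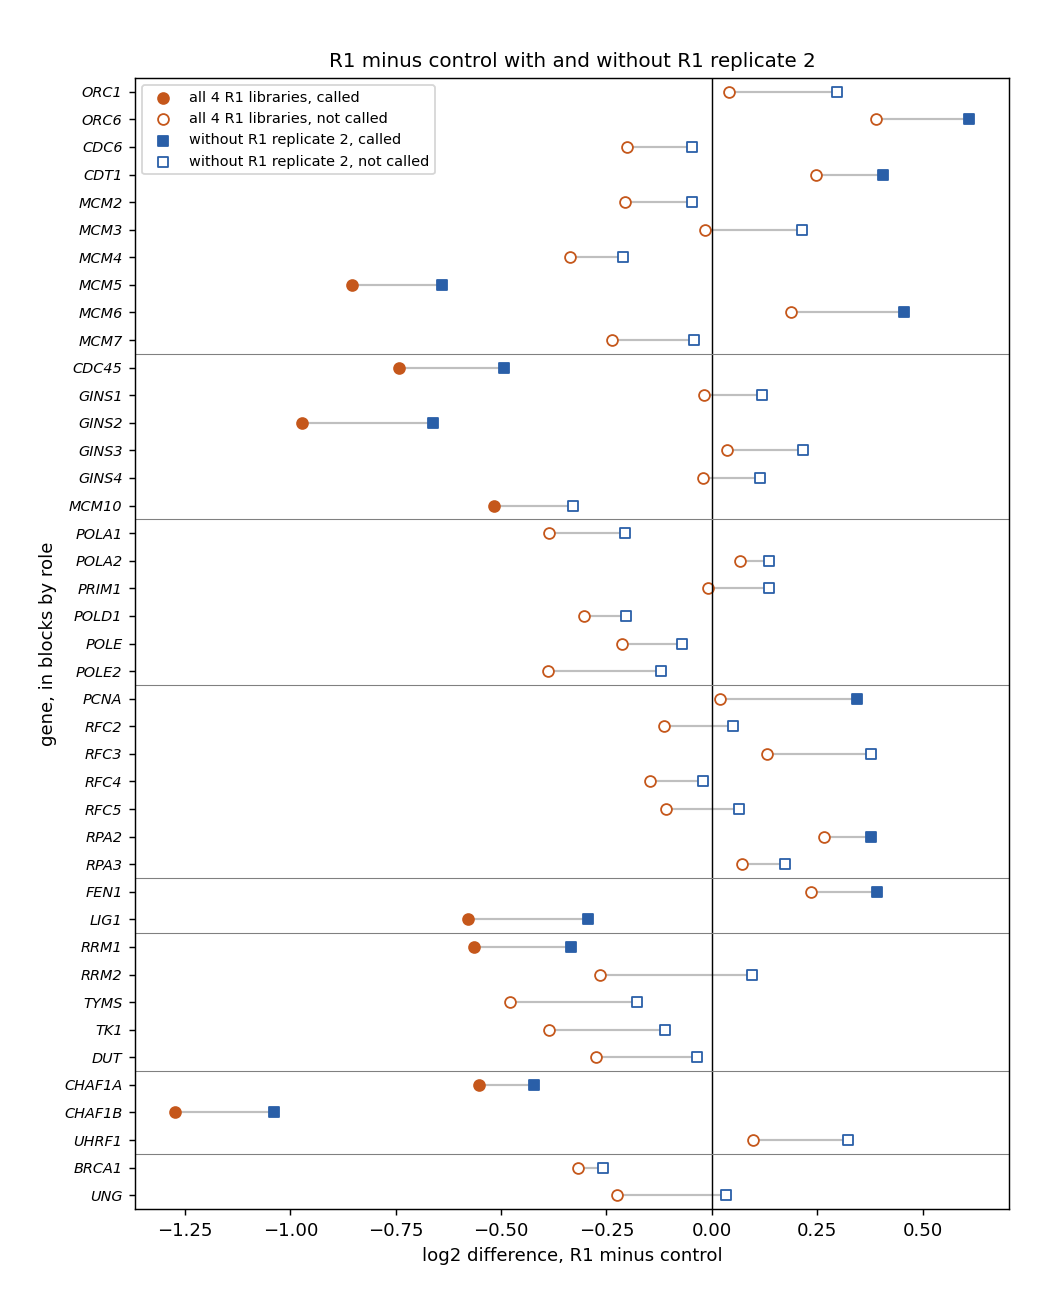
Log2 difference, R1 minus control, for each of the 41 genes in blocks by role, with all 4 R1 libraries (circles) and without R1 replicate 2 (squares). Filled marks passed an adjusted p of 0.05 in limma; every square lies right of its circle, 8 circles are filled on the left, and among the squares 7 are filled on the left and 6 on the right.

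Between R2 and control, DUT fell and BRCA1 rose, and the other 39 members did not pass. That is 1 of 41 down, against 14.8% of all genes, and 1 of 41 up, against 13.6% of all genes. The members' median log2 difference was -0.01, against 0.03 for all genes. R1 replicate 2 enters this comparison through the shared estimate of the spread. Without it in the fit, 5 members fell (DUT, UNG, TYMS, MCM7 and TK1; 16.6% of all genes) and 2 rose (BRCA1 and RRM2; 16.1% of all genes), with the same log2 differences. DUT, UNG, TYMS, MCM7 and TK1 also fell with only the 2 groups compared, and DUT, TYMS and UNG in DESeq2. BRCA1 rose in both of these fits and RRM2 in neither. BRCA1 lost its call in CPM, with mitochondrial transcripts left out, among genes with a mean of at least 5 and in edgeR. It was also lost without R1 replicate 4, without R2 replicate 1, 3 or 4, or without control replicate 2, 3 or 4 (adjusted p 0.00616 to 0.124 over the 21 alternatives).

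R2 against R1 is also the test of whether the signed differences of the combination groups from control were unequal. A call does not say which group lay farther from control. In it 10 members rose (24.4%, against 22.8% of all genes) and 1 fell (2.44%, against 24.0% of all genes). CHAF1B, BRCA1, MCM5, RRM1, MCM10, GINS2, POLE2, CDC45, CHAF1A and POLD1 rose, and DUT fell. In CPM the split was 8 up and 2 down. Without R1 replicate 2, 7 rose (23.5% of all genes) and 8 fell (24.2% of all genes), or 9 and 6 with mitochondrial transcripts left out. CDC45, CHAF1A and POLD1 no longer passed, and UNG, RPA3, CDT1, TYMS, ORC6, RFC3 and MCM7 joined DUT among those that fell. The comparisons share libraries (control in the first pair, R1 or R2 in the others), so their values are given side by side below.

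Origin licensing loads the MCM2 to MCM7 ring onto DNA in G1. ORC1 and ORC6, subunits of the origin recognition complex, CDC6 and CDT1 act as loaders. MCM5, a ring subunit (chr22:35400063-35425430 on GRCh38), had 303, 194, 247 and 224 in R2 libraries, 149.9, 84.3, 162 and 147 in R1 libraries and 286, 272, 215 and 193 in control libraries. Every R1 library lay below every R2 and every control library. MCM5 fell in R1 against control (log2 difference -0.85, SE 0.20, adjusted p = 0.00338; without R1 replicate 2, log2 difference -0.64, adjusted p = 0.00475). It was higher in R2 than in R1 (log2 difference 0.86, SE 0.20, adjusted p = 0.00311; without R1 replicate 2, log2 difference 0.64, adjusted p = 0.0044), and R2 minus control was 0.00 (SE 0.20).

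No other ring subunit was called in R1 against control with all libraries. MCM2 (chr3:127598223-127622436) had 238, 187, 231 and 203 in R2 libraries, 219, 144, 229.6 and 223 in R1 libraries and 277, 269.5, 203 and 189 in control libraries. The groups overlapped and no comparison passed, with or without R1 replicate 2. MCM6 had 118, 61.7, 136 and 138 in R1 libraries and 110.4, 109.6, 79.4 and 84.2 in control libraries, and without R1 replicate 2 every R1 library exceeded every control (log2 difference 0.19, adjusted p = 0.503 with it and log2 difference 0.45, adjusted p = 0.0145 without; adjusted p = 0.0596 with R1 replicate 4 dropped too). MCM7, at 151 to 193 in R2 and 194 to 243 in control libraries, did not overlap between these groups but did not pass with all libraries in the limma fit (log2 difference -0.36, adjusted p = 0.12). MCM7 passed without R1 replicate 2 (log2 difference -0.36, adjusted p = 0.0172) and with only the 2 groups compared. An antisense neighbour, AP4M1, shares 8.94% of the exon bases of MCM7. MCM3 and MCM4 passed in no comparison with or without R1 replicate 2. MCM4 stood at 362 in R1 replicate 1 against 185 to 238 in the other R1 libraries, and it passed as lower in R1 than in control when replicate 1 was left out (adjusted p = 0.00897).

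Per kilobase of exon, MCM3 had the highest mean signal of the ring in every group (144 in R2, 139 in R1 and 137 in control libraries). MCM6 had the lowest (31.1, 30.3 and 25.7 in the same groups). MCM5 averaged 68.5 per kilobase in R2, 38.4 in R1 and 68.4 in control libraries. Ratios of members within a library, here and below, do not depend on its scaling and were looked at after the values were seen. The ratio of MCM5 to MCM6 was 1.93 to 2.28 in R2, 1.06 to 1.37 in R1 and 2.29 to 2.71 in control libraries. In R1 replicate 2 it was 1.37, so the lower ratio of R1 was not set by that library.

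Among the loaders, CDT1 (chr16:88803213-88809258), which brings the ring to origins and is destroyed in S phase, had 53.0, 43.2, 51.9 and 44.1 in R2 libraries, 62.7, 39.4, 66.8 and 56.3 in R1 libraries and 46.8, 45.5, 50.3 and 43.4 in control libraries. All R1 libraries but replicate 2 exceeded every R2 and control library. With R1 replicate 2 in, R1 minus control did not pass (log2 difference 0.25, adjusted p = 0.185), and without it CDT1 was higher in R1 than in control (log2 difference 0.41, SE 0.11, adjusted p = 0.00743). ORC6 was likewise higher in R1 than in control without R1 replicate 2, with 35.2 to 39.2 in R1 libraries without replicate 2 and 20.5 to 30.0 in control libraries (log2 difference 0.61, SE 0.17, adjusted p = 0.00924; with it, log2 difference 0.39, adjusted p = 0.147). CDC6 (chr17:40287633-40304657) had 89.9, 77.3, 101 and 108 in R2 libraries, 76.6, 56.2, 90.1 and 92.4 in R1 libraries and 109, 113, 70.1 and 72.8 in control libraries, with groups that overlapped and no call. ORC1 was not called in any comparison, with means of 31.6 ± 3.47 in R2, 34.1 ± 10.3 in R1 and 32.3 ± 7.35 in control libraries (SD, n = 4 each). It passed as higher in R1 than in control when R1 replicate 2 and control replicate 1 were both dropped (limma adjusted p = 0.0493).

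At the start of S phase CDC45 and the GINS complex join the ring to form the active helicase, with the help of MCM10. GINS2 (chr16:85676198-85690073), a GINS subunit, had 40.6, 27.4, 30.0 and 27.7 in R2 libraries, 21.5, 8.95, 23.1 and 21.0 in R1 libraries and 41.1, 38.7, 31.6 and 29.5 in control libraries. Each R1 library was below each R2 and each control library, and R1 replicate 2 was the lowest by far. GINS2 fell in R1 against control (log2 difference -0.97, SE 0.25, adjusted p = 0.00547; without R1 replicate 2, log2 difference -0.66, adjusted p = 0.00325) and was higher in R2 than in R1 (log2 difference 0.80, SE 0.25, adjusted p = 0.0154; without R1 replicate 2, log2 difference 0.49, adjusted p = 0.0165). The call between R2 and R1 was lost without R2 replicate 1 (adjusted p = 0.0514), and without R1 replicates 2 and 4 (adjusted p = 0.0562). The other GINS subunits, GINS1, GINS3 and GINS4, were not called in any of these comparisons, and their log2 differences, R1 minus control, were -0.02, 0.04 and -0.02 (0.12, 0.22 and 0.11 without R1 replicate 2). The ratio of GINS2 to GINS3 within a library was 1.17 to 1.75 in R2, 0.535 to 0.890 in R1 and 1.29 to 1.76 in control libraries.

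CDC45 (chr22:19479459-19520612) had 68.6, 44.9, 64.7 and 66.3 in R2 libraries, 49.1, 23.0, 45.9 and 44.7 in R1 libraries and 74.7, 73.2, 60.3 and 56.3 in control libraries. R1 lay below control in every library, and R2 replicate 2 (44.9) fell inside the R1 range. CDC45 was lower in R1 than in control (log2 difference -0.74, SE 0.21, adjusted p = 0.0114; without R1 replicate 2, log2 difference -0.49, adjusted p = 0.0154, lost in CPM and when R1 replicate 4 was dropped too, adjusted p up to 0.0553). R2 minus R1 passed with all libraries (log2 difference 0.62, SE 0.21, adjusted p = 0.0269) and not without R1 replicate 2 (log2 difference 0.37, adjusted p = 0.0539), nor without R2 replicate 1, 3 or 4 or with only the 2 groups compared (highest adjusted p 0.0709). MCM10 (chr10:13161554-13211104) had 71.3, 57.3, 74.6 and 70.7 in R2 libraries, 60.2, 29.2, 41.04 and 48.7 in R1 libraries and 76.4, 70.6, 51.4 and 53.9 in control libraries. Its R1 and control ranges overlapped through R1 replicate 1, and the fall in R1 (log2 difference -0.52, SE 0.19, adjusted p = 0.0414) did not pass without R1 replicate 2 (log2 difference -0.33, adjusted p = 0.114). That fall was also lost in CPM, in edgeR, with only the 2 groups compared, and when replicate 3 of R1, replicate 1 or 4 of R2, or replicate 1 or 2 of control was dropped (highest adjusted p 0.12). MCM10 was higher in R2 than in R1 in both fits (log2 difference 0.65, SE 0.19, adjusted p = 0.0131; without R1 replicate 2, log2 difference 0.46, adjusted p = 0.0313). The second of these calls was lost in CPM and when replicate 3 or 4 of R1 or replicate 1, 3 or 4 of R2 was dropped too (highest adjusted p 0.148).

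Copying is begun by DNA polymerase alpha with its primase (POLA1, POLA2 and PRIM1) and continued by polymerase epsilon on the leading strand (POLE, POLE2) and polymerase delta (POLD1). Of these 6, POLE2 and POLD1 rose in R2 against R1. POLE2, the second subunit of epsilon, had 18.6, 16.2, 22.8 and 26.2 in R2 libraries and 16.9, 6.84, 13.2 and 14.8 in R1 libraries (log2 difference 0.72, SE 0.23, adjusted p = 0.0182; without R1 replicate 2, log2 difference 0.45, adjusted p = 0.0323). The ranges touched at R2 replicate 2 and R1 replicate 1. With R2 replicate 4 dropped the POLE2 call was lost (adjusted p = 0.0602), and without R1 replicate 2 it was lost in 6 of 20 alternatives, among them those that also dropped replicate 3 or 4 of R1 or of R2 (highest adjusted p 0.118). POLD1, the catalytic subunit of delta, had 110.1 to 142 in R2 and 83.3 to 123 in R1 libraries (log2 difference 0.33, SE 0.12, adjusted p = 0.0389) and did not pass without R1 replicate 2 (log2 difference 0.23, adjusted p = 0.102). Its call was also lost in CPM, with only the 2 groups compared, and without R1 replicate 4, R2 replicate 1, 2 or 3, or control replicate 2 (highest adjusted p 0.106). POLE, POLA1, POLA2 and PRIM1 were not called by limma in any comparison, with log2 differences, R1 minus control, of -0.39 (POLA1) to 0.07 (POLA2), and of -0.21 and 0.14 for the same genes without R1 replicate 2. POLA1 (limma adjusted p = 0.0624) passed as lower in R1 than in control in DESeq2, and without replicate 1 or 4 of R1 or replicate 3 of control. POLD1 (log2 difference -0.30, limma adjusted p = 0.0607, and -0.20, adjusted p = 0.157 without R1 replicate 2) passed as lower there in DESeq2, under a replicate block and without R1 replicate 1.

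The sliding clamp PCNA tethers polymerases to DNA, the RFC complex (RFC2 to RFC5) loads it, and RPA coats single-stranded DNA. The log2 differences of these 7 genes lay between -0.29 and 0.27 over the 3 comparisons. With all libraries 0 were called by limma, edgeR or DESeq2 in any comparison, and at an unadjusted p under 0.05 the count was 1, in R2 minus R1. Of all genes, limma called 13.6 to 24.0% in each direction of the same comparisons. PCNA (chr20:5114953-5126626) had 86.2, 70.7, 76.0 and 79.4 in R2 libraries, 80.7, 35.8, 95.9 and 91.6 in R1 libraries and 83.6, 79.8, 59.0 and 61.3 in control libraries. Apart from R1 replicate 2, the lowest of all, the groups overlapped. Without that library PCNA was higher in R1 than in control (log2 difference 0.34, SE 0.13, adjusted p = 0.0469; with it, log2 difference 0.02, adjusted p = 0.956), a call lost in 12 of 20 alternatives (highest adjusted p 0.138), among them edgeR, DESeq2 and the fits that also dropped replicate 3 or 4 of R1, replicate 1, 3 or 4 of R2, or replicate 3 or 4 of control. RPA2, a subunit of RPA, stood at 76.8 to 93.2 in R1 libraries without replicate 2 and at 53.7 to 75.8 in control libraries (log2 difference 0.38, SE 0.13, adjusted p = 0.0308; with it, log2 difference 0.27, adjusted p = 0.142). RPA2 no longer passed with mitochondrial transcripts left out, with only the 2 groups compared, or when replicate 3 of R1, or replicate 3 or 4 of control, was dropped too (highest adjusted p 0.124). RFC3 (log2 difference -0.47, adjusted p = 0.0185) and RPA3 (log2 difference -0.39, adjusted p = 0.0129) were lower in R2 than in R1 without R1 replicate 2, and did not pass with it (log2 difference -0.22, adjusted p = 0.41 for RFC3 and log2 difference -0.29, adjusted p = 0.0735 for RPA3). RFC3 did not pass when R1 replicate 4 was dropped too, nor with mitochondrial transcripts left out (highest adjusted p 0.0766). RFC2, RFC4 and RFC5 were not called in any comparison.

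Okazaki fragments are trimmed by the nuclease FEN1 and sealed by the ligase LIG1. LIG1 had 93.7, 39.2, 88.0 and 79.5 in R1 libraries and 121, 104, 109 and 94.3 in control libraries, so every R1 library was below every control (log2 difference -0.58, SE 0.21, adjusted p = 0.0391; without R1 replicate 2, log2 difference -0.29, adjusted p = 0.0468). R1 replicate 2 held less than any other library. The fall in LIG1 did not pass in CPM, in edgeR, with only the 2 groups compared, or without control replicate 1, 2 or 3 (highest adjusted p 0.0952). The fall without R1 replicate 2 was lost in 9 of 20 alternatives (highest adjusted p 0.176), among them those that also dropped replicate 3 or 4 of R1, replicate 2 or 3 of R2, or replicate 1, 2 or 3 of control. FEN1 had 202, 139.8, 243 and 204 in R1 libraries and 188, 191, 147 and 138 in control libraries, and passed as higher in R1 without replicate 2 and not with it (log2 difference 0.24, adjusted p = 0.272 with it and log2 difference 0.39, adjusted p = 0.0399 without). FEN1 failed to pass in edgeR, under a replicate block, with mitochondrial transcripts left out, and when any further R1 library, or replicate 3 or 4 of control, was dropped too (highest adjusted p 0.146).

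Nucleotides for copying come from ribonucleotide reductase (large subunit RRM1, small subunit RRM2), thymidylate synthase (TYMS), thymidine kinase (TK1) and the dUTPase DUT, which keeps uracil out of DNA. DUT (chr15:48331011-48343373) had 50.9, 43.7, 48.8 and 39.1 in R2 libraries, 91.6, 50.4, 110.3 and 94.7 in R1 libraries and 100.1, 104, 89.8 and 112 in control libraries. All R2 libraries were below all controls, and R1 replicate 2 alone reached the R2 range. DUT averaged 45.6 ± 5.33 in R2 libraries and 101 ± 9.03 in control libraries (SD, n = 4 each) and fell in R2 (log2 difference -1.15, SE 0.19, adjusted p = 0.000441), a call that held in all 21 alternatives. It was also lower in R2 than in R1 (log2 difference -0.87, SE 0.19, adjusted p = 0.00194; without R1 replicate 2, log2 difference -1.11, adjusted p = 7.18e-06), while R1 minus control was -0.28 (adjusted p = 0.257; without R1 replicate 2, -0.04, adjusted p = 0.821). DUT has 8 annotated pseudogenes, none of them listed in the data, and how reads shared with them were counted is not given in the sources used here, so its level is uncertain. PCNA, RRM2, RPA2, TYMS, UNG, RFC3, RFC5 and FEN1 also have named pseudogenes, from 1 to 3 each. Of 9 listed genes that lie at least partly within 1 Mb of DUT, 7 also fell in R2 against control (14.8% of all genes fell). The median log2 difference of the 9 was -0.77, and their part in the DUT value was not tested.

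RRM1 (chr11:4094707-4138876) had 200.3, 173, 229 and 227 in R2 libraries, 135, 76.8, 149 and 153 in R1 libraries and 214, 191, 165 and 169 in control libraries. Its R1 libraries lay below all the others. RRM1 fell in R1 against control (log2 difference -0.56, SE 0.19, adjusted p = 0.0245; without R1 replicate 2, log2 difference -0.33, adjusted p = 0.0372) and was higher in R2 than in R1 (log2 difference 0.73, SE 0.19, adjusted p = 0.00564; without R1 replicate 2, log2 difference 0.50, adjusted p = 0.00416). Its neighbours moved with it: 7 of 9 within 1 Mb fell in R1 against control (median log2 difference -0.68; 21.4% of all genes fell) and 8 of 9 rose in R2 against R1 (median 0.78; 22.8% of all genes rose). Their part in the RRM1 values was not tested. The fall of RRM1 in R1 did not pass without control replicate 1 or 2 (highest adjusted p 0.071). In the fit without R1 replicate 2 it was lost in CPM, when any further R1 library was dropped, and when replicate 1 or 2 of control was (highest adjusted p 0.129). RRM2 (chr2:10120698-10131419), the subunit that is limiting in most cells, had 388, 439.7, 434 and 447 in R2 libraries, 318, 128, 352 and 382 in R1 libraries and 408, 371, 264 and 288 in control libraries. R2 exceeded R1 in every library without passing (log2 difference 0.65, adjusted p = 0.0614; without R1 replicate 2, log2 difference 0.29, adjusted p = 0.112). Against control, RRM2 was higher in R2 in the fit without R1 replicate 2 (log2 difference 0.38, adjusted p = 0.0397) and did not pass with it (adjusted p = 0.316). The ratio of RRM2 to RRM1 within a library was 1.90 to 2.54 in R2, 1.67 to 2.50 in R1 and 1.60 to 1.94 in control libraries, so the groups overlapped.

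TYMS (chr18:657604-673578) had 162, 145, 179 and 172 in R2 libraries, 197, 88.1, 216 and 200.1 in R1 libraries and 251, 237, 220.4 and 218 in control libraries. Controls were above every R2 and R1 library. With all libraries in the limma fit neither difference passed (R2 minus control, log2 difference -0.49, adjusted p = 0.104; R1 minus control, log2 difference -0.48, adjusted p = 0.087), and without R1 replicate 2 the one for R2 did (adjusted p = 0.00089) and the one for R1 did not (log2 difference -0.18, adjusted p = 0.151). The fall of TYMS in R2 also passed in DESeq2 and with only the 2 groups compared, and the fall in R1 passed without R1 replicate 3. ENOSF1, antisense to TYMS, shares 39.1% of its exon bases, and with a kit that does not mark strand reads of the 2 genes cannot be told apart there. TK1 averaged 143 ± 27.5 in R2, 156 ± 50.5 in R1 and 196 ± 25.0 in control libraries (SD, n = 4 each). It passed as lower in R2 than in control without R1 replicate 2 (log2 difference -0.46, adjusted p = 0.0227) and not with it (adjusted p = 0.149). With only the 2 groups compared TK1 passed too. The ratio of DUT to TYMS within a library was 0.227 to 0.315 in R2, 0.464 to 0.572 in R1 and 0.400 to 0.511 in control libraries, and the R2 ratios lay below all others.

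Chromatin is rebuilt behind the fork by chromatin assembly factor 1, whose large and middle subunits are CHAF1A and CHAF1B, and UHRF1 brings the maintenance DNA methyltransferase to new DNA. CHAF1B (chr21:36385378-36419015) had 40.1, 31.8, 47.8 and 53.6 in R2 libraries, 20.3, 11.5, 24.6 and 22.6 in R1 libraries and 49.1, 55.5, 41.8 and 41.4 in control libraries. R1 lay below every other library. It showed the largest fall among the members in R1 against control, with means of 19.7 ± 5.78 in R1 and 46.9 ± 6.72 in control libraries (SD, n = 4 each; log2 difference -1.27, SE 0.21, adjusted p = 0.000299). Without R1 replicate 2 the difference was -1.04 (adjusted p = 0.000212), and the call held in all 21 alternatives. CHAF1B was higher in R2 than in R1 (log2 difference 1.14, SE 0.21, adjusted p = 0.000651; without R1 replicate 2, log2 difference 0.91, adjusted p = 0.000561), and R2 minus control was -0.13 (SE 0.21). Of 9 neighbours within 1 Mb, 3 fell in R1 against control, where 21.4% of all genes fell. Among the other members that fell there, the count was 6 of 11 neighbours for GINS2 and 12 of 37 for LIG1. It was 4 of 24 for CDC45, 2 of 9 each for MCM5 and MCM10, and 3 of 32 for CHAF1A. The part of these neighbours in the member values was not tested.

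CHAF1A (chr19:4402662-4445018) had 128, 104, 142 and 142 in R2 libraries, 102, 73.6, 111 and 105 in R1 libraries and 153, 154, 138 and 126 in control libraries. It was lower in every R1 library than in every control (log2 difference -0.55, SE 0.14, adjusted p = 0.00544; without R1 replicate 2, log2 difference -0.42, adjusted p = 0.0106). R2 minus R1 passed with all libraries (log2 difference 0.40, adjusted p = 0.0296) and not without R1 replicate 2 (log2 difference 0.27, adjusted p = 0.0767). The call was also lost in CPM, with only the 2 groups compared, and without R2 replicate 1, 3 or 4 (highest adjusted p 0.0833). The ratio of CHAF1B to CHAF1A within a library was 0.306 to 0.377 in R2, 0.156 to 0.221 in R1 and 0.302 to 0.361 in control libraries, so the 2 subunits did not change by equal amounts in R1. UHRF1 was not called in any comparison, with 121 ± 14.4 in R2, 125 ± 33.1 in R1 and 116 ± 29.5 in control libraries (SD, n = 4 each). It passed as higher in R1 than in control when R1 replicate 2 and control replicate 1 were both dropped (limma adjusted p = 0.0314).

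BRCA1 and UNG act in repair at the fork, BRCA1 in homologous recombination and UNG in cutting uracil out of DNA. BRCA1 (chr17:43044295-43170245) had 73.4, 65.7, 77.9 and 83.1 in R2 libraries, 63.8, 37.2, 30.9 and 42.8 in R1 libraries and 62.9, 54.0, 48.1 and 46.6 in control libraries. Every R2 library exceeded every R1 and control library, and R1 replicate 1 (63.8) stood above the other R1 libraries. It rose in R2 against control (log2 difference 0.50, SE 0.18, adjusted p = 0.0485) and against R1 (log2 difference 0.82, SE 0.18, adjusted p = 0.00194; without R1 replicate 2, log2 difference 0.76, adjusted p = 0.00512). UNG had 88.1, 83.9, 73.6 and 68.6 in R2 libraries and 148, 133, 92.8 and 97.4 in control libraries, all R2 below all controls. It missed the threshold in limma with all libraries (log2 difference -0.56, adjusted p = 0.071) and passed without R1 replicate 2 (adjusted p = 0.00854). The fall of UNG also passed in DESeq2 and with only the 2 groups compared.

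**Figure D4:**
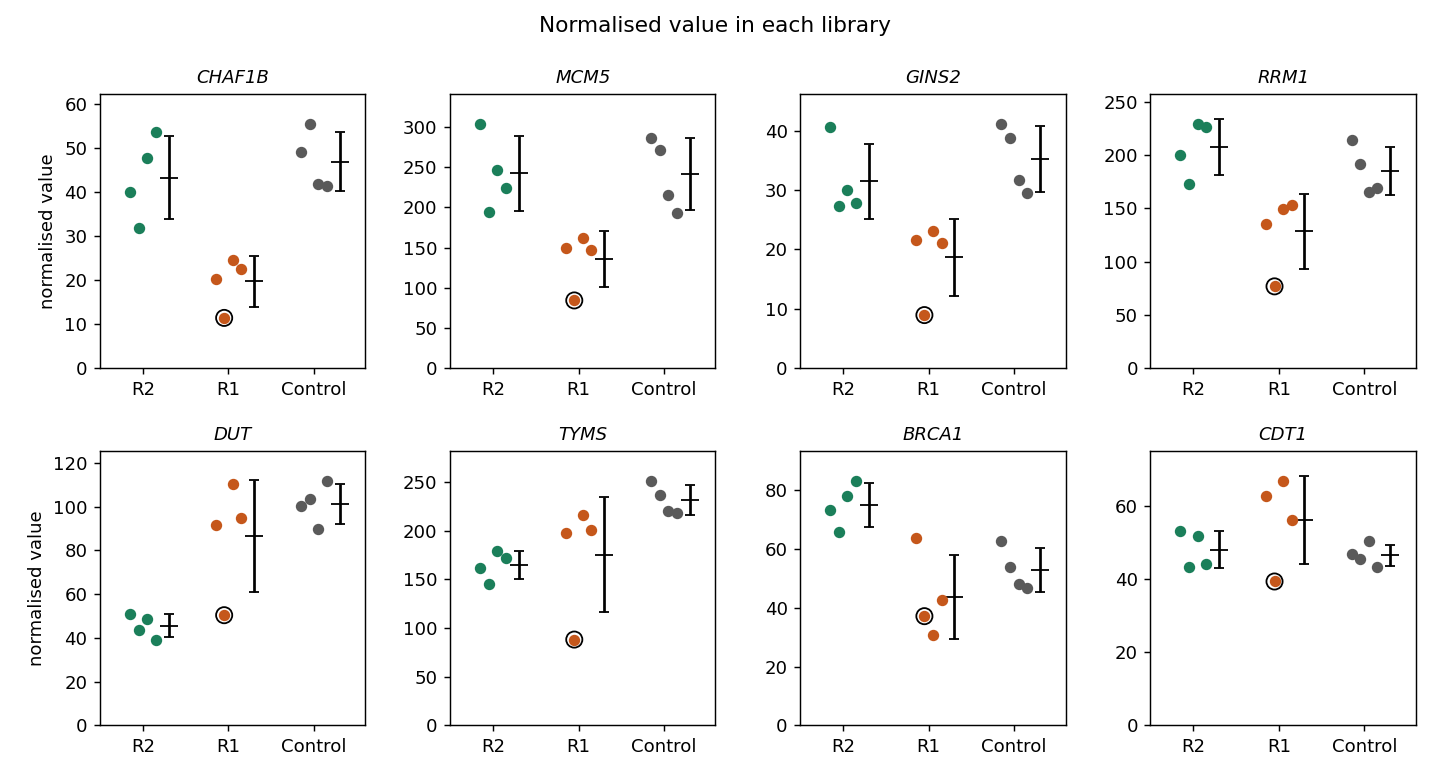
Normalised value of CHAF1B, MCM5, GINS2, RRM1, DUT, TYMS, BRCA1 and CDT1 in R2, R1 and control libraries, 1 point per library with the mean and SD of 4 beside it; a ring marks R1 replicate 2. CHAF1B, MCM5, GINS2 and RRM1 are lowest in R1 (CHAF1B 11.5 to 24.6 against 41.4 to 55.5 in control libraries), DUT in R2 (39.1 to 50.9 against 89.8 to 112), and BRCA1 is highest in R2.

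Among 45 other listed replication genes (46 were named), 8 fell (17.8%, against 21.4% of all genes) and 6 rose (13.3%, against 22.4% of all genes) in R1 against control. RPA1, the large subunit of RPA, averaged 77.7 ± 6.92 in R1 and 160.4 ± 8.40 in control libraries (log2 difference -1.04, SE 0.09, adjusted p = 8.65e-07; without R1 replicate 2, log2 difference -0.99, adjusted p = 1.59e-06). POLD2, the second subunit of polymerase delta, averaged 214 ± 29.1 in R1 and 413 ± 23.9 in control libraries (log2 difference -0.95, SE 0.11, adjusted p = 7.76e-06; without R1 replicate 2, log2 difference -0.88, adjusted p = 1.12e-05). In R2 against control 4 fell (8.89%, against 14.8% of all genes) and 3 rose (6.67%, against 13.6% of all genes). RPA1 (log2 difference -0.90) and TICRR, which helps load CDC45 (log2 difference -0.72), led those that fell. In R2 against R1, 9 rose (20.0%, against 22.8% of all genes) and 3 fell (6.67%, against 24.0% of all genes). They were led by POLD2 (log2 difference 1.02; 0.94 without R1 replicate 2) and the polymerase epsilon subunit POLE4 (log2 difference -0.90; -1.06 without R1 replicate 2). Leaving out R1 replicate 2, 10 rose (22.2%, against 23.4% of all genes) and 6 fell (13.3%, against 22.1%) in R1 against control. In R2 against R1, 6 then rose (13.3%, against 23.5% of all genes) and 9 fell (20.0%, against 24.2%).

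Among 16 other S-phase repair genes, 4 fell in R1 against control (PALB2, FANCD2, BRCA2 and BLM; 25.0%, against 21.4% of all genes). In R2 against control 3 fell (18.8%, against 14.8% of all genes), among them FANCI (log2 difference -0.59, adjusted p = 0.0107). The difference in R1 was -0.60 for PALB2 (adjusted p = 0.00064; without R1 replicate 2, -0.55, adjusted p = 0.00159) and -0.60 for FANCD2 (adjusted p = 0.0105; without R1 replicate 2, -0.46, adjusted p = 0.0269) on the log2 scale. BRCA2, the partner of BRCA1 in recombination, was like it higher in R2 than in R1 (log2 difference 0.84, adjusted p = 0.00269; without R1 replicate 2, log2 difference 0.71, adjusted p = 0.00723). FANCI was lower in R2 than in R1 (log2 difference -0.65, adjusted p = 0.00329; without R1 replicate 2, log2 difference -0.85, adjusted p = 1.35e-05). The counts without R1 replicate 2 were 3 up (18.8%, against 23.4% of all genes) and 3 down (18.8%, against 22.1%) in R1 against control. In R2 against R1 they were 4 up (25.0%, against 23.5% of all genes) and 2 down (12.5%, against 24.2%).

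The regulators of entry into S phase include the E2F proteins themselves. Of 23 E2F, RB and G1/S genes, 7 rose (30.4%, against 22.4% of all genes) and 3 fell (13.0%, against 21.4%) in R1 against control. In R2 against control 6 rose (26.1%, against 13.6% of all genes) and 3 fell (13.0%, against 14.8%). In R1 against control 9 rose (39.1%, against 23.4% of all genes) and 3 fell (13.0%, against 22.1%) without R1 replicate 2. Cyclin D1 (CCND1) averaged 383 ± 48.7 in R2, 545 ± 111 in R1 and 268 ± 57.8 in control libraries (SD, n = 4 each). It rose in R2 (log2 difference 0.53, adjusted p = 0.04) and in R1 (log2 difference 1.02, adjusted p = 0.000402; without R1 replicate 2, log2 difference 1.18, adjusted p = 4.87e-05) against control, and was lower in R2 than in R1 (log2 difference -0.49, adjusted p = 0.0346; without R1 replicate 2, log2 difference -0.66, adjusted p = 0.00364). Cyclin E1 (CCNE1) averaged 24.1 ± 1.69 in R2, 14.6 ± 2.34 in R1 and 10.8 ± 1.15 in control libraries (SD, n = 4 each). It also rose in R2 (log2 difference 1.13, adjusted p = 2.31e-05) and in R1 (log2 difference 0.41, adjusted p = 0.0208; without R1 replicate 2, log2 difference 0.52, adjusted p = 0.00338), and was higher in R2 than in R1 (log2 difference 0.71, adjusted p = 0.000596; without R1 replicate 2, log2 difference 0.60, adjusted p = 0.00115). E2F8, a repressive member of the E2F family, averaged 16.2 ± 3.81 in R2, 3.56 ± 1.81 in R1 and 0.952 ± 0.0797 in control libraries (SD, n = 4 each). It rose in R2 (log2 difference 3.50, adjusted p = 9.25e-07) and in R1 (log2 difference 1.35, adjusted p = 0.00195; without R1 replicate 2, log2 difference 1.70, adjusted p = 2.59e-05), with the higher level in R2 (log2 difference 2.14, adjusted p = 4.96e-05; without R1 replicate 2, log2 difference 1.80, adjusted p = 1.66e-05). TFDP2, a partner of E2F proteins, rose in R1 against control (log2 difference 0.60, adjusted p = 0.000212; without R1 replicate 2, log2 difference 0.54, adjusted p = 0.000398), and CDK4 was lower in R2 than in R1 (log2 difference -1.13, adjusted p = 1.1e-05; without R1 replicate 2, log2 difference -1.24, adjusted p = 1.76e-06). Against control CDK4 rose in R1 (log2 difference 0.61, adjusted p = 0.00171, and 0.72, adjusted p = 0.000155 without R1 replicate 2). It fell in R2 against control (log2 difference -0.52, adjusted p = 0.00766). E2F1, an activating E2F, was not called with all libraries (log2 difference 0.36, adjusted p = 0.138 for R2 and log2 difference 0.21, adjusted p = 0.339 for R1 against control) and was higher in R1 without R1 replicate 2 (log2 difference 0.41, adjusted p = 0.0115).

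Of 24 mitosis genes, 5 fell in R1 against control (20.8%, against 21.4% of all genes) and 0 rose by limma (22.4% of all genes). At an unadjusted p under 0.05, 8 were lower and 0 higher (3219 and 3421 of all 12931 genes). By edgeR and DESeq2, 4 and 5 were lower (2681 and 2931 of all genes) and 0 higher (2964 and 2938 of all genes). The falls were led by FOXM1, a transcription factor of G2 (log2 difference -1.33, adjusted p = 0.000255; without R1 replicate 2, log2 difference -1.05, adjusted p = 3.92e-05), and the mitotic kinase PLK1 (log2 difference -1.13, adjusted p = 0.00124; without R1 replicate 2, log2 difference -0.82, adjusted p = 0.000135). Without R1 replicate 2, 5 rose (20.8%, against 23.4% of all genes) and 4 fell (16.7%, against 22.1% of all genes). In R2 against control, 2 rose (8.33%, against 13.6% of all genes) and 4 fell (16.7%, against 14.8% of all genes). MKI67, the gene of the proliferation marker Ki-67, stood at 598 ± 85.9 in R2 and 349 ± 81.5 in control libraries (log2 difference 0.79, adjusted p = 0.00525). CCNB2, a mitotic cyclin, was lower (log2 difference -0.92, adjusted p = 0.00586). FOXM1 fell in R2 against control as well (log2 difference -0.83, adjusted p = 0.0115). Between R2 and R1 FOXM1 did not pass (log2 difference 0.50, adjusted p = 0.0764, and 0.22, adjusted p = 0.193 without R1 replicate 2). In R2 against R1, 8 of the 24 rose (33.3%, against 22.8% of all genes) and 0 fell by limma (24.0% of all genes). At an unadjusted p under 0.05, 1 was lower (3507 of all 12931 genes), and 1 each by edgeR and DESeq2 (3102 and 3182 of all genes). Leaving out R1 replicate 2, 8 rose (33.3%, against 23.5% of all genes) and 5 fell (20.8%, against 24.2% of all genes). MKI67 and PLK1 were higher in R2 than in R1 (log2 differences of 1.10 and 1.09, or 0.98 and 0.79 without R1 replicate 2), and MKI67 was not called in R1 against control (log2 difference -0.31, adjusted p = 0.187; without R1 replicate 2, log2 difference -0.18, adjusted p = 0.421).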

How the data were processed

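WM1366 RNA was prepared with a Qiagen RNeasy mini kit and the TruSeq RNA Library Prep Kit v2, which does not mark strand, per the labels' protocols. STAR, edgeR and GRCh38 are named in the submitters' processing notes. How reads of a host animal were handled is not given in the sources used here. The deposited values are a normalised read signal per gene (12931 rows, 12929 distinct symbols, 2 of them on 2 rows each). In every library 100% of values were whole multiples of the value of 1 read (tolerance 0.001 reads), which gave 20003891 to 39009384 recovered reads; 3 reads were worth a value of 0.0728 to 0.158.

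Differences were tested with limma 3.58.1 in R 4.3.3 (mean-variance trend, two-sided) on log2(value + 0.5), with 3 group means over 12 libraries and Benjamini-Hochberg adjustment over 12931 genes, at an adjusted p of 0.05. Fold changes on that scale understate the change of low genes. Fits without R1 replicate 2 used the other 11 libraries. On the recovered reads, edgeR 4.0.16 and DESeq2 1.42.0 were alternatives. Other alternatives were pseudocounts of 0.1 and 2, a mean of at least 5, CPM with and without mitochondrial transcripts, a replicate block, only the groups compared, and leaving out each library. The code was tested on simulated data.

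Gene positions and exon lengths came from GENCODE release 29 (GRCh38), and promoters from RefSeq (GRCh38.p14). The members and lists were chosen with earlier results of these data known. Given in full were the 6 called members with the smallest p in each comparison and MCM2, MCM5, CDC6, CDT1, PCNA, RRM2, TYMS and BRCA1, and from each pathway list up to 2 called genes with the smallest p per comparison, with MKI67 and E2F1; 1 gene that this rule names is not reported here. In all, 11 members share exon bases with another listed gene. Where a gene had several promoters, the one with most E2F core matches was printed, and equal counts were ordered by symbol. Replicate numbers were not used as pairs. No 2 libraries of the same group agreed within sampling noise.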

Additional observations from a re-analysis of the deposited data

Results flagged for a closer look

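A sample that stood far from the other 3 of its group (a gap beyond Dixon's 95% critical value, which chance gives in about 1 of 20 groups) was found in 8 of 123 combinations of member and group. In 5 of them it was R1 replicate 2, which held a value of 144.0 for MCM2, 23.0 for CDC45, 8.95 for GINS2, 88.1 for TYMS and 76.0 for UHRF1. Its summed member value of 2473 and its member share of reads of 0.263% stood apart in the same way. In the other 3 it was R2 replicate 2, with 44.9 for CDC45, 40.0 for RFC3 and 62.4 for RPA2.

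R2 and R1 differed, by the limma test of R2 minus R1, in 11 members, 10 higher in R2 (24.4%, against 22.8% of all genes) and 1 lower (2.44%, against 24.0% of all genes). The log2 difference was 1.14 for CHAF1B, 0.86 for MCM5, 0.82 for BRCA1, 0.80 for GINS2, 0.73 for RRM1, 0.72 for POLE2, 0.65 for MCM10, 0.62 for CDC45, 0.40 for CHAF1A and 0.33 for POLD1. It was -0.87 for DUT. For CHAF1B, MCM5, RRM1, GINS2, BRCA1, POLE2, MCM10 and DUT the difference also passed without R1 replicate 2.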

How the results depend on the processing

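No member's difference that passed in the reported fits changed sign under any alternative. Over members and alternatives, calls were gained 16 times and lost 17 times in R1 against control, 11 and 11 times in R2 against control, and 15 and 21 times in R2 against R1. Called members in R1 against control numbered 8, and 5 (without control replicate 1 or 2) to 13 (without R1 replicate 2) with 1 library left out. In R2 against control the count of 2 became 1 with a mean of at least 5, 1 in CPM, 1 in those without mitochondrial transcripts, 1 in edgeR, 4 in DESeq2, 6 with only the 2 groups compared, and 1 to 7 with 1 library left out (7 without R1 replicate 2). In R1 against control without R1 replicate 2, whose alternatives were chosen after seeing the data, the count of 13 became 7 (without R1 replicate 4) to 14. In R2 against R1, with and without R1 replicate 2, counts of 11 and 15 stayed within 1.5 times. Under the replicate block the counts were 9 in R1 against control, 2 in R2 against control and 12 in R2 against R1, and 11 and 17 without R1 replicate 2. It added POLD1 in R1 against control and RPA3 in R2 against R1, and without R1 replicate 2 it dropped PCNA and FEN1 in the first and added CDC45 and TK1 in the second. Deviations of same-numbered R2 and R1 libraries had correlations of 0.07 to 0.13, and those with control -0.31 to 0.39. As not every pair exceeded 0.1, and R1 replicate 3 correlated best, among R2 libraries, with R2 replicate 1 (0.14), the libraries were taken to share only a number. Under every scaling the log2 median of all genes lay within 0.085 of 0. The cause of these changes was not tested. The lowest count of a member in any library was 156 reads.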
